A study of Arabidopsis thaliana with 12 samples.

Results

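FMA and AT1G22690 were chosen because both are read as genes of guard cells, the paired epidermal cells that open and close a stomatal pore. Each had 1 probe set paired with it alone, and together they make 2 of the 13356 genes that the array annotation ties to a probe set of their own. FMA (AT3G24140, also called FAMA) encodes a basic helix-loop-helix transcription factor that stops the guard mother cell from dividing further and gives its daughters guard cell identity. In leaves it also directs the formation of myrosin cells, which store myrosinase. AT1G22690 encodes a small peptide of the gibberellin-regulated GASA type, and its promoter is widely used to drive transgenes in guard cells. Stomatal cells arise in the young epidermis through a relay of related transcription factors, SPCH first, then MUTE, then FMA, and guard cell transcripts make up a minor share of the RNA of a whole leaf.

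The plants were Arabidopsis thaliana of the Columbia ecotype, and all of them, controls included, were AB plants: they carried rmpA and rmpB of Mycobacterium gastri MB19, expressed in the chloroplast, which fix formaldehyde into sugar phosphates. Plants without these transgenes were not analysed here. Rosette leaves of 7-week-old plants were taken after 72 h of constant light at 24 °C and a further 150 min in the light, with 1 array for each of 12 plants. The 4 groups held 3 plants each: outside (never placed in the chamber, under 0.08 ppm formaldehyde), air (in the 10 L chamber with clean air, under 0.04 ppm), low (1 to 2 ppm in the chamber) and high (14 to 16 ppm in the chamber). All 3 plants of a condition shared an exposure, so that chamber run and condition cannot be told apart, and p-values cover the spread between plants only. Values are log2 intensities, and a difference of 1 on this scale is 2-fold. A gene was called where limma's adjusted p, over 22746 probe sets, was under 0.05.

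The arrays themselves were not alike within the air group. On the second principal component (12.2% of the variance) air plants 2 and 3 lay at 49.6 and 69.5. Air plant 1 lay at -9.01, between these and the low plants (-44.8 to -29.0), and close to high plant 3 (-7.08). The array closest to air plant 1 by correlation was low plant 1. Comparisons with the air plants were therefore also fitted without air plants 2 and 3, and for both genes and the listed genes the value is given where this changed a call. The check of leaf identity was thin: of 17 mesophyll genes listed only RCA, the activator of Rubisco, had a probe set of its own, and it read 14.7 to 15.1 in all 12 plants. No listed gene of the epidermis (10 listed), phloem (6) or xylem (6) had one, so the amount of epidermis in a leaf sample was not measured. Of the root genes 3 of 5 were measured: AT5G10130 lay at the lowest value on all arrays, PYK10 stood above it in air plant 3 alone (6.17), and AT3G24670 averaged 4.99 to 5.51 over the groups.

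FMA was highest outside the chamber and lowest at high formaldehyde. It read 6.43, 5.73 and 6.59 in outside plants, 5.15, 4.84 and 5.05 in air plants, 4.92, 5.54 and 5.90 in low plants, and 4.32, 4.08 and 4.15 in high plants. The 3 high plants lay below the other 9, and the air plants lay below all outside plants, while the low plants spanned the range from the air plants to the lowest outside plant. The group means were 6.25 ± 0.46 outside, 5.02 ± 0.16 in air, 5.45 ± 0.50 at low and 4.18 ± 0.12 at high formaldehyde (SD, n = 3 each). Every FMA value lay above the lowest value on the arrays, 2.11, at which GCRMA leaves probe sets with no signal over background. Over the 4 groups the level differed by more than the spread between plants (exact permutation test of the F statistic, p = 8.44e-04, adjusted over 3 such tests 0.00253).

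AT1G22690 had a different order, highest at low formaldehyde and lowest outside. It read 9.59, 9.33 and 8.40 in outside plants, 11.49, 10.61 and 9.62 in air plants, 11.57, 11.64 and 11.50 in low plants, and 10.11, 9.70 and 10.18 in high plants. The low plants lay within 0.14 of each other and above all others, and the outside plants lay below all others. The air plants spread over 1.87, from just under the low plants (air plant 1) to just above the outside plants (air plant 3). Means were 9.11 ± 0.63 outside, 10.57 ± 0.93 in air, 11.57 ± 0.07 at low and 10.00 ± 0.26 at high formaldehyde (SD, n = 3 each), and the groups differed (exact permutation test, p = 0.00455, adjusted over 3 such tests 0.00682).

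**Figure D1:**
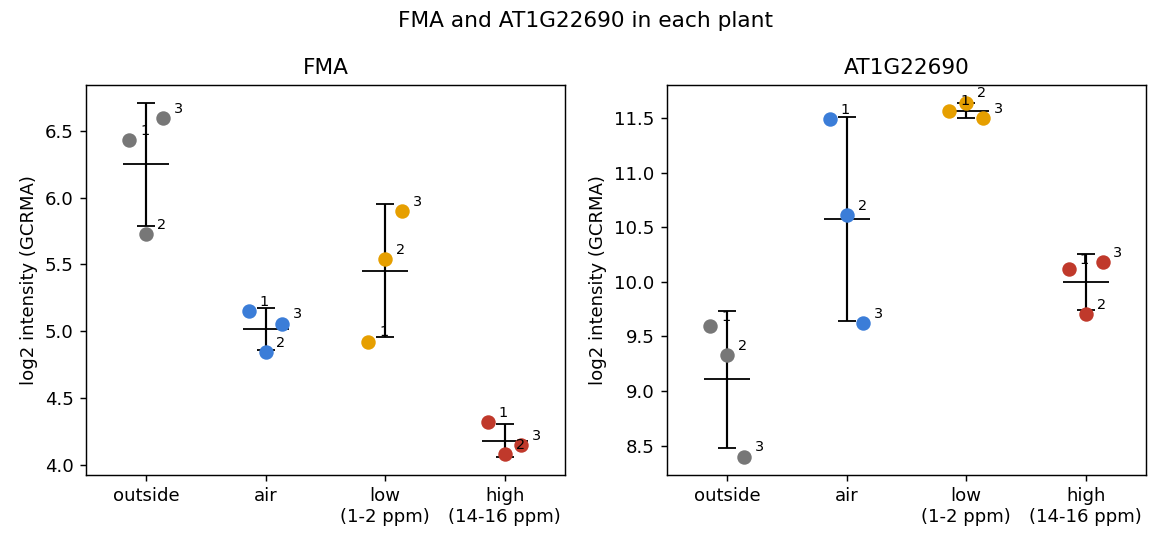
Log2 intensity (GCRMA) of FMA and AT1G22690 in each of the 12 plants, with the plant's number beside its point and the group mean ± SD in black (n = 3). FMA lies at 4.08 to 4.32 in the high plants, below all others, and AT1G22690 at 11.50 to 11.64 in the low plants, above all others.

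High against air, both in the chamber, is the comparison for the strong exposure. FMA fell to 4.18 ± 0.12 in high plants, against 5.02 ± 0.16 in air plants (SD, n = 3), a log2 change of -0.83 ± 0.28 (SE, limma adjusted p = 0.0490), or 1.78-fold lower, and no high plant reached the level of an air plant. AT1G22690 had -0.58 ± 0.45 (adjusted p = 0.415), with a 95% interval of -1.60 to 0.45 that takes in a fall as large as that of FMA. One of the 2 genes was thus called lower, in a comparison that called 19.9% of all probe sets lower, 14.7% higher and 34.6% in either direction, and in which the plants of both groups did not overlap for 41.4%. The call thus places FMA among a large share of the transcriptome. A fall larger than that of FMA was seen in 13.4% of all probe sets. The call for FMA is close to the threshold, and 9 of the 12 fits that left out a plant lost it (adjusted p up to 0.131, without high plant 2). The change of AT1G22690 depended on the air plants: it was -0.12 without air plant 1, and -1.49 without air plants 2 and 3. FMA had -0.97 without air plants 2 and 3, a fit that leaves 1 air plant.

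Low against air is the comparison for the weak exposure. Neither gene was called: FMA had 0.44 ± 0.28 (SE, limma adjusted p = 0.513) and AT1G22690 0.99 ± 0.45 (adjusted p = 0.296), in a comparison that called 1.24% of all probe sets (0.756% higher and 0.488% lower). At an unadjusted p under 0.05 the count was also 0 of 2, with 17.9% of all probe sets. The 95% intervals were -0.20 to 1.08 for FMA and -0.03 to 2.02 for AT1G22690. All 3 low plants read higher than all air plants for AT1G22690, by as little as 0.01 between the lowest low plant and air plant 1, and this lack of overlap held for 19.4% of all probe sets. Without air plants 2 and 3 its difference was 0.08 (adjusted p = 1.00).

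High against low sets the concentrations against each other. Its differences hold no air plant, though the spread behind the SE and p is estimated over all 12 arrays. Both genes fell. FMA stood at 4.18 ± 0.12 in high plants and 5.45 ± 0.50 in low plants (SD, n = 3), a log2 change of -1.27 ± 0.28 (SE, limma adjusted p = 0.00710), or 2.41-fold lower. AT1G22690 stood at 10.00 ± 0.26 in high plants and 11.57 ± 0.07 in low plants, a change of -1.57 ± 0.45 (adjusted p = 0.0247), or 2.97-fold lower. For both, the high plants lay below all low plants. The comparison called 18.3% of all probe sets lower, 15.5% higher and 33.8% in either direction, and 43.6% had no overlap between the groups. FMA was called in all 12 fits that left out a plant, AT1G22690 in 7 of them, with adjusted p up to 0.0844 without high plant 2 and between 0.0546 and 0.0700 without high plant 1 or any of low plants 1, 2 and 3.

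Air against outside compares plants in the ventilated chamber with plants that stayed outside it, with no formaldehyde added to either. Here the genes went opposite ways. FMA fell to 5.02 ± 0.16 in air plants, against 6.25 ± 0.46 in outside plants (SD, n = 3), a log2 change of -1.23 ± 0.28 (SE, limma adjusted p = 0.0413), or 2.35-fold lower. AT1G22690 read 10.57 ± 0.93 in air plants and 9.11 ± 0.63 in outside plants, with a difference of 1.47 ± 0.45 that did not pass (adjusted p = 0.104, 95% interval 0.44 to 2.49), though all air plants read above all outside plants. The comparison called 2.5% of all probe sets lower and 3.1% higher (5.6% in all), and in 20.2% of them the groups did not overlap. Only 1.75% of all probe sets had a lower change than FMA, and 98.8% had a lower change than AT1G22690. Leaving out plants changed both: FMA lost the call in 8 of 12 fits (adjusted p up to 0.127, without air plant 2), while AT1G22690 passed without air plant 3 (1.94, adjusted p = 0.0362). Without air plants 2 and 3, which leaves 1 air plant, FMA had -1.10 and AT1G22690 2.38.

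The formaldehyde groups were also set against the outside plants, which joins the change of chamber and the gas in 1 difference. In low plants AT1G22690 rose to 11.57 ± 0.07, against 9.11 ± 0.63 in outside plants (SD, n = 3), by 2.46 ± 0.45 on the log2 scale (SE, limma adjusted p = 0.0137), or 5.51-fold. This was its largest difference in the 6 comparisons, and 0.831% of all probe sets had a larger one in either direction, where 4.03% were called higher, 3.77% lower and 7.8% in all, and 25.9% had no overlap between the groups. The call was lost in 1 of 12 fits that left out a plant, without low plant 2 (adjusted p = 0.0510). FMA in low plants had -0.80 ± 0.28 against outside plants (adjusted p = 0.138), with low plant 3 above outside plant 2. In high plants FMA fell by 2.07 ± 0.28 (adjusted p = 3.77e-04), or 4.19-fold, to 4.18 ± 0.12, against 6.25 ± 0.46 in outside plants, where 21.1% of all probe sets were called lower, 16.4% higher and 37.5% in all. This call held in all 12 fits that left out a plant, with changes from -2.33 to -1.90. AT1G22690 in high plants had 0.89 ± 0.45 against outside plants (adjusted p = 0.173), again with all high plants above all outside plants, as for 45.1% of probe sets in either direction.

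**Figure D2:**
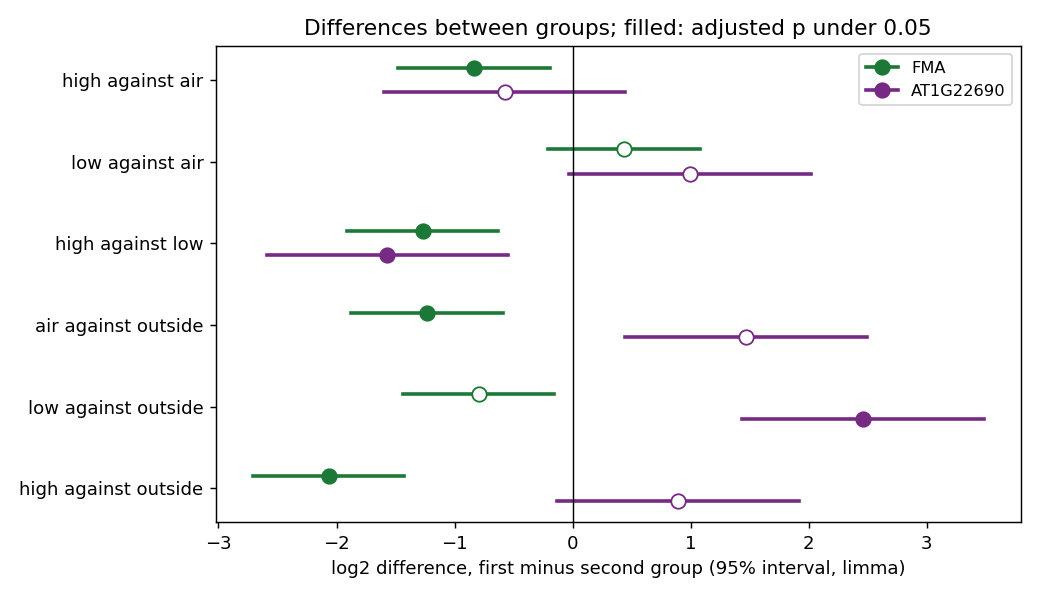
Log2 difference of FMA and AT1G22690 in the 6 comparisons, first-named group minus the second, with limma's 95% interval; filled points passed an adjusted p of 0.05. FMA lies below 0 in all but low against air, and AT1G22690 lies above 0 in all comparisons but high against air and high against low.

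In the order of FMA's means (outside, low, air, high) the neighbours outside and low did not pass the adjusted threshold (adjusted p = 0.138), though the 95% interval of low minus outside, -1.44 to -0.15, lies below 0. Low and air did not pass either (0.513), and air and high passed narrowly (0.0490). In the order of AT1G22690's means (low, air, high, outside) no neighbours passed: low and air had 0.296, air and high 0.415, and high and outside 0.173. The steps that passed for AT1G22690 therefore span the order, from low to high and from low to outside. Comparisons that share a group also share its plants, and their values are not independent of each other.

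The difference between both genes within a plant removes any shift of a whole array. A constant offset between the probe sets drops out when this difference is compared between groups. FMA read lower than AT1G22690 in every plant, and an effect of signal level on the size of changes was not tested. FMA minus AT1G22690 was -3.16, -3.60 and -1.80 in outside plants, -6.34, -5.77 and -4.57 in air plants, -6.64, -6.10 and -5.60 in low plants, and -5.80, -5.62 and -6.03 in high plants. The 9 chamber plants lay below the 3 outside plants, and the chamber groups overlapped each other. Over the 4 groups the difference passed (exact permutation test, p = 0.0116, adjusted over 3 such tests 0.0116). Between groups it stood at -2.70 in air, -3.26 in low and -2.96 in high plants against outside plants, each with the smallest p that 3 against 3 allow (exact permutation p = 0.1), so that these pairs cannot pass 0.05. Within the chamber these values were -0.26 in high against air, -0.55 in low against air and 0.30 in high against low plants. Within groups the genes did not move together: their deviations from the group means had r = -0.11 over 12 arrays.

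**Figure D3:**
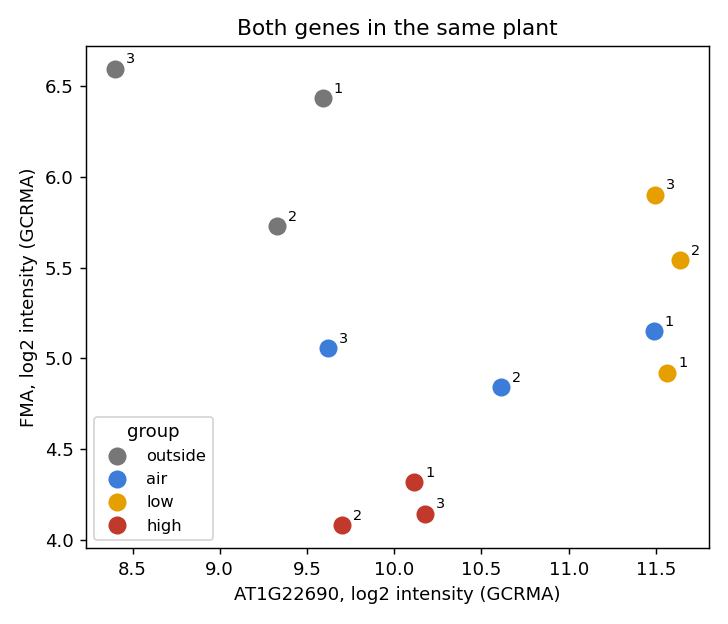
FMA (vertical axis) against AT1G22690 (horizontal axis), both as log2 intensity (GCRMA), for the 12 plants coloured by group and numbered by plant. The outside plants sit at the upper left (FMA 5.73 to 6.59, AT1G22690 8.40 to 9.59), the low plants at the right and the high plants at the bottom.

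Air against outside and high against low have no plant in common, so the position of a gene in both is not set by shared plants. The calls in both do share a spread estimated over all 12 arrays, so they are not independent of each other. For FMA the call in air against outside was lost in 8 of 12 fits that left out a plant. FMA was called lower in both, as were 249 of the 569 probe sets called lower in air plants against outside plants (43.8% of these). AT1G22690 was called lower only in high against low, where its difference in air against outside was positive without passing. Of the 705 probe sets called higher in air against outside, 173 (24.5%) were called lower in high against low, and of the 21472 not called there, 17.5% were.

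**Figure D4:**
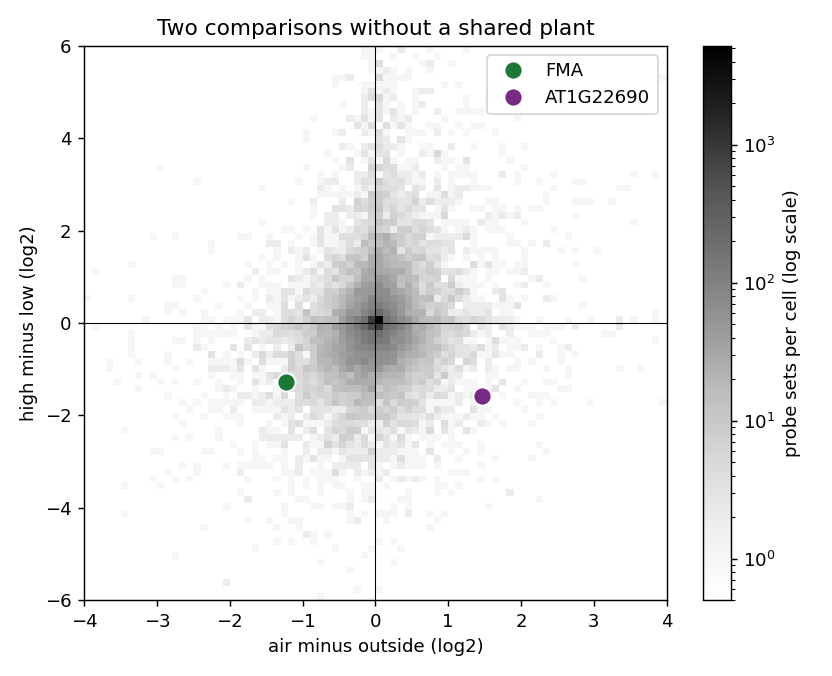
Log2 difference of air minus outside (horizontal axis) and of high minus low (vertical axis) for 22658 of 22746 probe sets (88 lie beyond the axes), with the number per cell in grey on a log scale and both genes marked. FMA lies in the lower left quadrant (-1.23 and -1.27) and AT1G22690 in the lower right (1.47 and -1.57).

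Other genes of stomata and guard cells were taken from 3 lists, and most genes of each had no probe set of their own. Measured were 7 of 40 listed genes of stomatal development, FMA included. For guard cell transport 3 of 24 were measured, and for guard cell signalling 4 of 26. Besides FMA, 13 genes of these lists had a probe set of their own, 11 of them above the lowest value on at least 1 array. In high against air, 6 of the 13 fell and 1 rose, with a median log2 change of -0.72 where the median of all probe sets was 0 (of all probe sets 19.9% were called lower). In high against low 5 fell and none rose (median -0.84), where 18.3% of all probe sets were called lower. In air against outside 2 fell (median -0.33, with 2.5% of all probe sets called lower). In low against air none was called by limma, where 1.24% of all probe sets were called. At an unadjusted p under 0.05 the count there was 2 of 13, with 17.9% of all probe sets. Against the outside plants 8 fell and 1 rose in high plants (21.1% of all probe sets lower and 16.4% higher), and 2 fell and 1 rose in low plants (3.77% lower and 4.03% higher). Whole leaves were sampled, so that fewer guard cells and less of an RNA per guard cell cannot be told apart.

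Within the developmental list, SPCH and MUTE, the transcription factors that start the lineage and end its divisions before FMA acts, lay at the lowest value in all 12 plants, so FMA was the only one of these 3 with a measured level. STOMAGEN, a peptide that mesophyll cells release and that raises stomatal density, read 5.87, 6.23 and 7.88 in high plants and 8.38, 9.46 and 8.02 in air plants, a log2 change of -1.96 (adjusted p = 0.0281). It also fell in high against low plants (-2.56, adjusted p = 0.00787) and in high against outside plants (-2.94, adjusted p = 0.00330). The call against air was lost in 3 of 12 fits that left out a plant, and without air plants 2 and 3 (-1.71, adjusted p = 0.206). ATSBT5.2, a subtilisin-type protease, was lower in chamber plants than outside, at 5.73, 6.53 and 5.19 in air plants, against 7.15, 7.50 and 7.05 in outside plants (-1.42, adjusted p = 0.0340), a call that 9 of 12 fits without a plant lost. Its change in high against air, -0.82, was close to that of FMA but did not pass (adjusted p = 0.0699).

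ATBRXL2, a relative of the root growth regulator BRX, was above the lowest value in the outside plants (2.92 to 3.54) and in low plant 3 (2.54), and at it in all air and high plants. It was called lower in air, low and high plants against outside plants (adjusted p = 0.00637, 0.00719 and 3.59e-04), and the call in air plants was lost without air plants 2 and 3 (adjusted p = 0.0737). These levels are too close to the lowest value for a fold. SOL1, a DNA-binding protein with CXC domains that acts in the stomatal lineage, resembled AT1G22690 in being highest in low plants, at 5.26, 5.83 and 5.64. It fell to 2.64, 2.93 and 2.47 in high plants, by 2.90 against low plants (adjusted p = 1.03e-04) and by 1.47 against air plants (adjusted p = 0.00489). These high plants read close to the lowest value, 2.11, so the sizes of both falls are uncertain. SOL1 rose in low plants against outside plants (1.76, adjusted p = 0.0113), while low against air had 1.43 (adjusted p = 0.0652).

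The clearest fall among the 3 measured transport genes was that of CHX20, a cation/proton exchanger of guard cell endomembranes that takes part in stomatal opening. It read 7.06, 6.84 and 6.91 in high plants and 8.51, 9.20 and 8.76 in air plants, a log2 change of -1.89 ± 0.15 (SE, limma adjusted p = 2.01e-05), with 0.12 in air against outside (adjusted p = 0.839). Its change against air was more than that of FMA, and it held without air plants 2 and 3 (-1.57, adjusted p = 1.83e-04). AT5G52050 (DTX50), an efflux carrier of abscisic acid, the hormone that closes stomata, was the 1 gene that rose: 2.33, 4.83 and 3.82 in high plants, with air plants within 0.02 of the lowest value (adjusted p = 0.0406). This call was lost in 11 of 12 fits that left out a plant, and without air plants 2 and 3 (adjusted p = 0.257). AT5G06970 had 0.49 in high against air (adjusted p = 0.0964).

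Among the 4 measured signalling genes AT4G14480 (BLUS1), a kinase that carries the blue light signal for stomatal opening, fell most. It read 2.73, 2.34 and 3.65 in high plants and 6.46, 5.35 and 5.22 in air plants, a log2 change of -2.77 ± 0.40 (SE, limma adjusted p = 5.77e-04), and it had -0.33 in air against outside (adjusted p = 0.815). The high plants read close to the lowest value, 2.11, so the size of the BLUS1 fall is uncertain. AT5G50000 fell by 0.72 in high against air (adjusted p = 0.0118), and by 1.11 without air plants 2 and 3. AT4G22790 had -1.94 (adjusted p = 0.0280), but air plant 1 (4.66) read like the high plants (3.51 to 4.79), and without air plants 2 and 3 it had -0.44 (adjusted p = 0.688). AT3G01490 fell by 2.05 in high against outside (adjusted p = 0.0154). In high against air it had -0.15 (adjusted p = 1.00), but -1.51 (adjusted p = 0.0413) without air plants 2 and 3 and 0.53 (adjusted p = 0.316) without air plant 1. BLUS1 and CHX20 thus had large changes at high formaldehyde and small ones between air and outside, where FMA had its own fall. Other listed genes did not all share this pattern. In air against outside ATSBT5.2 and ATBRXL2 were called lower. AT3G01490 had -1.90 there (adjusted p = 0.0849), STOMAGEN -0.98 (0.440) and AT4G22790 0.78 (0.533). Whether the responses of BLUS1 and CHX20 differ from that of FMA was not tested.

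**Figure D5:**
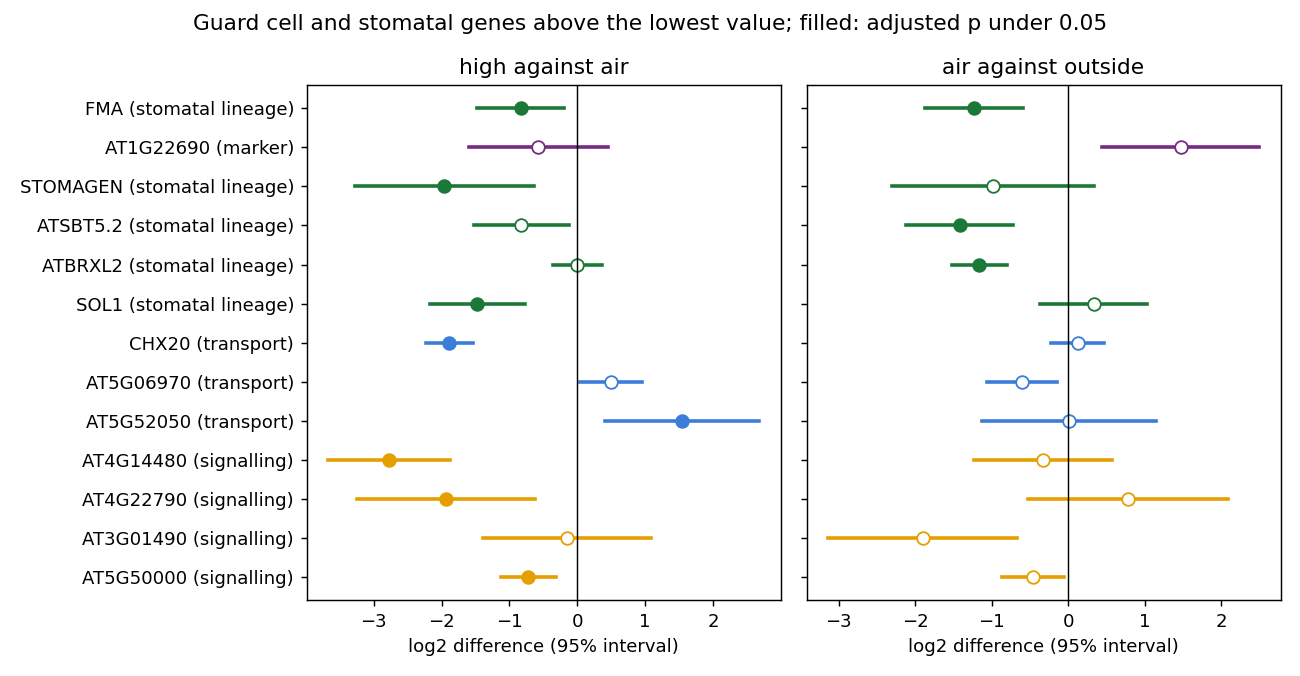
Log2 difference with limma's 95% interval for FMA, AT1G22690 and 11 genes of the stomatal and guard cell lists with values above the lowest one, in high against air (left) and air against outside (right); filled points passed an adjusted p of 0.05. AT4G14480 (-2.77) and CHX20 (-1.89) lie far to the left in high against air, and at -0.33 and 0.12 in air against outside. AT3G01490 lies at -0.15 in high against air and at -1.90 in air against outside.

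Relatives by sequence family were listed for each gene. Of 10 basic helix-loop-helix genes related to FMA 7 were measured, and 2 of them besides FMA (SPCH and MUTE) lay at the lowest value throughout, with AT5G65320 within 0.5 of it in every group mean. In high against low plants AT4G01460 (-3.03, adjusted p = 0.00314), AT3G61950 (-1.97, adjusted p = 0.00428) and AT1G22490 (bHLH094, -1.06, adjusted p = 0.00213) fell along with FMA. These were 3 of the 6 measured relatives other than FMA, which had a median of -0.53, where 18.3% of all probe sets were called lower. The same 3 and FMA fell in high against outside, where 21.1% of all probe sets were called lower. There AT4G01460 had -3.68 (adjusted p = 8.64e-04), AT3G61950 -1.47 (adjusted p = 0.0166) and AT1G22490 -0.61 (adjusted p = 0.0303). Of 12 fits that left out a plant, this call held in 12 for AT4G01460, 10 for AT3G61950 and 8 for AT1G22490. In high against air FMA fell, and of the 6 relatives only AT3G61950 did (-2.37, adjusted p = 0.00147). That is 1 of 6, against 19.9% of all probe sets. AT3G61950 read 2.44, 2.11 and 2.55 in high plants, at or close to the lowest value, so its differences are not the size of a fall. AT1G22490 (2.84 to 3.02) and AT4G01460 (3.21 to 3.62) also read low in high plants, so the sizes of their falls are uncertain. AT4G01460 had -1.62 in high against air (adjusted p = 0.0596), and -2.32 (adjusted p = 0.0276) without air plants 2 and 3. AT4G01460 was the relative whose group means ran in the order of FMA's, at 7.03 outside, 4.96 in air, 6.38 at low and 3.35 at high formaldehyde. Its change in air against outside, -2.07, did not pass (adjusted p = 0.0793).

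Of 15 GASA genes 6 were measured, and AT2G39540, AT2G18420 and AT2G30810 lay within 0.5 of the lowest value in every group mean. AT2G14900 was called higher in high against air plants (3.78, adjusted p = 0.0150), at 7.15, 7.32 and 7.91 in high plants and 6.46, 2.29 and 2.29 in air plants. That call rests on air plants 2 and 3, and without them the change was 1.00 (adjusted p = 0.196). In high against low, where AT1G22690 fell, AT2G14900 had 0.86 (adjusted p = 0.642) and AT5G59845 0.20 (adjusted p = 0.815), and AT1G22690 was the 1 call among 6, where 33.8% of all probe sets were called.

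The gene table places AT1G22700 directly beside AT1G22690, with annotated ends that overlap. Its probe set fell in high against air (-0.66, adjusted p = 0.00133) and in high against low (-0.76, adjusted p = 6.21e-04). In air against outside it had -0.11 (adjusted p = 0.722) and in low against outside -0.01 (adjusted p = 1.00), where AT1G22690 had 1.47 and 2.46. AT3G24130, next to FMA, lay at the lowest value in all group means.

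The genes most like FMA across the 12 arrays, out of 10662 compared by Pearson's r, were AT5G15050 (r = 0.96), AT2G41760 (0.95), GSO1 (0.94), AT3G20230 (0.93) and AT5G14260 (0.93). Each had its highest mean outside, then low, then air, then high. AT1G22690 ranked 7095 in that order, with r = -0.23. The genes most like AT1G22690 were AT2G41990 (r = 0.92), TBL45 (0.92), AT1G48210 (0.91), AT3G26510 (0.91) and AT4G19430 (0.90). All 5 had their highest mean in low plants and their lowest outside, and AT2G41990 averaged 8.57 in low plants and 3.34 in outside plants. These r are descriptions over arrays of 4 groups, and follow the differences between groups. By deviations from the group means the likest genes were others, led by AT2G18670 (r = 0.92) for FMA and AT5G24260 (r = 0.95) for AT1G22690.

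Markers of other cells and RNA controls were read beside these changes. TRY, a repressor of leaf hair formation and the 1 of 6 trichome genes with a probe set of its own, fell in high against air plants (-1.82, adjusted p = 0.0287, but -0.95 and 0.142 without air plants 2 and 3) and had -0.40 in high against low (adjusted p = 0.748). RCA had -0.14 in high against air (adjusted p = 0.370) and -0.02 in high against low (adjusted p = 1.00). The 3' minus 5' signal of the GAPDH control, a sign of RNA integrity, was 0.23 ± 0.05 in high plants, against 0.03 ± 0.10 in air, -0.07 ± 0.07 in low and 0.10 ± 0.04 in outside plants (SD, n = 3 each). That of ubiquitin was -0.48 ± 0.04 in high plants, against -0.37 ± 0.06 in air, -0.30 ± 0.04 in low and -0.40 ± 0.02 in outside plants. That of actin was 0.89 ± 0.15 in high plants, against 0.65 ± 0.14 in air, 0.79 ± 0.13 in low and 0.89 ± 0.06 in outside plants. The part of these measures in the changes of FMA and AT1G22690 was not tested.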

How the data were processed

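Total RNA of about 100 mg of rosette leaf was labelled with biotin (10 µg per target) and measured on 1 array per plant. The authors deposited log2 intensities made with GCRMA, per the submitters' processing notes, which corrects background from probe sequence, normalizes between arrays and summarises probes. GCRMA's version was not given in the sources used here. Values entered the tests as deposited, and scanner files were not analysed here. Of 22810 probe sets 64 were controls, and 22746 were tested without a filter on signal. Array medians ran from 5.68 to 5.82, and each array had 26.6% to 28.0% of its probe sets at the lowest value (3999 on every array). The 3 plants a group limit the precision. The labels call the plants of a group replicates.

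The platform annotation names genes for the probe sets: 13513 had 1 gene, 503 several and 8730 none, and 13436 of the first kind were found in the RefSeq gene table (TAIR10.1), used for names and neighbours. Of 190 genes in 13 lists 29 were measured, and the lists for abscisic acid, myrosin cells, epidermis, phloem and xylem had none. Members, lists and tests were chosen with earlier results of these data known.

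Groups were compared with limma 3.58.1 in R 4.3.3 on all 12 arrays (eBayes with a mean-variance trend, 8 residual degrees of freedom, Benjamini-Hochberg adjustment of two-sided p-values). On simulated data for high against air (22746 probe sets), 57 of 100 changes of log2 1 and 78 of 100 of log2 2 were called, with 13 unchanged probe sets. No other probe sets were changed in the simulation, whereas 34.6% were called in the real comparison. The adjusted threshold depends on that share, so these rates need not hold for the real data. For single values the F statistic was compared over all 15400 partitions of the arrays into 4 groups. Python 3.11.15, pandas 2.3.3 and matplotlib 3.10.9 handled tables and plots. The named genes were both members, measured list members, and for likeness the 5 genes with the highest r. Alternatives were other scalings, filters, variance models, array sets, a replicate block and left-out plants.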

Additional observations from a re-analysis of the deposited data

How the results depend on the processing

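The direction of FMA and of AT1G22690 was kept in all 6 comparisons under every alternative run. FMA in high against low and in high against outside, and the 3 exact tests over the 4 groups, kept their side of the threshold in all of them. FMA in high against air lost its call with arrays centred on the median (-0.76, adjusted p = 0.0604) or on probe sets above the lowest value (-0.80, 0.0508), with array weights (-0.79, 0.0538), with robust variances or the replicate block (-0.83 each, 0.0517 and 0.0583), at an adjusted p under 0.01 (-0.83), and without air plants 2 and 3 (-0.97, 0.192). Fits without a plant gave -0.92 to -0.77. FMA in air against outside lost it with the 6 arrays alone (-1.23, 0.148), with the replicate block (-1.23, 0.0643), at the 0.01 threshold (-1.23) and without air plants 2 and 3 (-1.10, 0.344), and ran from -1.50 to -1.06 without a plant. AT1G22690 lost its calls in high against low (-1.57) and low against outside (2.46) at the 0.01 threshold, and ran from -1.66 to -1.42 and from 2.11 to 2.70 without a plant. It gained a call in air against outside when dim probe sets were left out (1.47, 0.0334) and without air plants 2 and 3 (2.38), with 1.01 to 1.94 without a plant, and in high against air without air plants 2 and 3 (-1.49). A lone air plant is assumed to vary like the other groups.

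Calls over all probe sets moved by over 1.5 times in 3 comparisons. Low against air (283, with 172 higher and 111 lower) had 51 at the 0.01 threshold, 678 centred on the median (488 and 190), 461 centred on probe sets above the lowest value (282 and 179), 468 and 1209 with dim probe sets left out (248 and 220, then 614 and 595), 1719 with array weights (836 and 883), 7 with 6 arrays, 81 with the replicate block (59 and 22), 160 without air plants 2 and 3 (43 and 117), and 76 to 2250 without a plant. Air against outside (1274) had 282 at 0.01, 1942 with dim probe sets left out, 58 with 6 arrays, 845 with the replicate block, 586 without air plants 2 and 3, and 603 to 2137 without a plant. Low against outside (1775) had 583 at 0.01, 2897 with array weights and 820 to 2273 without a plant. The causes were not tested. Same-numbered plants did not deviate together (r of -0.27 to 0.23 over 18 pairs, and 0 of 12 arrays closest to their own number). No pairing by number was thus seen, though with 3 plants a group this check cannot exclude one. Of the 13 other guard cell and stomatal genes, 4 to 6 were called lower in high against air without a plant, 5 without air plants 2 and 3, and 3 to 7 under the other settings. In air against outside these were 1 to 4, 1 and 0 to 3.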
